A study of Mus musculus with 64 samples.

Results

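The genes described here are 30 genes of cholesterol synthesis and handling in mouse fat, namely brown adipose tissue (BAT) and the white adipose tissue beside the epididymis (eWAT). They were chosen by name, for what their proteins do. They comprise 4 regulators of the pathway, 8 enzymes of the mevalonate and isoprenoid steps, 11 enzymes that build the sterol and 7 genes that transport, export or esterify cholesterol. All 30 were among the 20249 genes with enough reads to be tested, of 52636 genes in the count table. The study asked how loss of the NAD+ synthesis enzyme NAMPT in fat alters the daily rhythm of the transcriptome, and RNA was sequenced from 64 samples. Knockout mice, called FANKO, carried the *Nampt* tm1Jtree alleles, in which loxP sites flank an exon, together with Adiponectin-Cre. Their controls, called WT, were littermates from the same cross that lacked Cre. All were young adult males on chow at room temperature. Each depot was sampled from each genotype at zeitgeber time (ZT) 6 and 10, in the light phase, and at ZT18 and 22, in the dark phase, with 4 samples in each of the 16 groups. Adiponectin-Cre acts in adipocytes, so the other cells of the tissue keep *Nampt*.

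Cells make cholesterol from acetyl-CoA through mevalonate, farnesyl diphosphate and squalene, and the last enzymes of the route convert lanosterol to cholesterol. The transcription factor SREBP-2, encoded by *Srebf2*, switches on most of these enzymes when sterols in the endoplasmic reticulum are low. SCAP escorts SREBP-2 to the Golgi for cleavage, and INSIG proteins hold the pair back when sterols are plentiful. *Insig1* is itself a target of SREBP-2. Surplus cholesterol is esterified by SOAT1 or exported by ABCA1 and ABCG1, whose genes are switched on by the oxysterol-sensing liver X receptors. In mice, which feed in the dark, hepatic cholesterol synthesis is known to be higher at night.

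Promoter windows were read from RefSeq (GRCm38.p6) for 24 of the 30 genes. Of these windows, each running from 250 bases before the start of transcription to 50 after it, 21 (87.5%) held CCAAT, the letters bound by NF-Y, on either strand, against 41.1% of 27025 genes. GGGCGG, bound by Sp1, was found in 22 (91.7%), against 38.2% of all genes. The letters TCACNCCAC, a form of the sterol regulatory element, were found in 1 (4.17%), against 1.44%. CACGTG, an E-box that the clock factors can bind, was found in 6 (25%), against 8.09%. A direct repeat of the liver X receptor type, DR4, was found in 0, against 0.0148%. No match overlaps another in the stretches printed, and the matches are descriptions of the letters, with no binding measured. They are shown for 6 genes because 5 of them had a daily course that differed between the genotypes in a depot, and because *Hmgcs1* was the gene with the sterol regulatory letters. Each is 150 bases on the gene's strand, 5′ to 3′, with matches to the motifs in capitals, and ends at the RefSeq start of transcription, except that *Insig1* ends 49 and *Hsd17b7* 36 bases before it to leave out transcribed bases of other annotated starts. They lie at chr5:28071213-28071362 (+ strand) for *Insig1*, chr13:119690201-119690350 (+ strand) for *Hmgcs1*, chr8:122443423-122443572 (- strand) for *Mvd*, chr1:169969242-169969391 (- strand) for *Hsd17b7*, chr9:42264301-42264450 (- strand) for *Sc5d* and chr4:53159896-53160045 (- strand) for *Abca1*.
Insig1: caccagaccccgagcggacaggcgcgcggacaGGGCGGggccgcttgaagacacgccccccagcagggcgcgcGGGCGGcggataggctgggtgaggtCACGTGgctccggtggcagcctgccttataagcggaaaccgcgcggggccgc
Hmgcs1: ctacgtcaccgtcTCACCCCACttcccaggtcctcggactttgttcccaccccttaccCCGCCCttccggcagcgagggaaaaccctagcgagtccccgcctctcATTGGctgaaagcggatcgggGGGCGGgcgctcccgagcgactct
Mvd: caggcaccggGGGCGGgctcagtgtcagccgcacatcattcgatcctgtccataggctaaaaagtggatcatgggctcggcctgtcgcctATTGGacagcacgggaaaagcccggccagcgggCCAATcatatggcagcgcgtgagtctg
Hsd17b7: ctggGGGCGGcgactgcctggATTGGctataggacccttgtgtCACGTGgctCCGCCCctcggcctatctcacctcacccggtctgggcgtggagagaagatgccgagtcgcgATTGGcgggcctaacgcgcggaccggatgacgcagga
Sc5d: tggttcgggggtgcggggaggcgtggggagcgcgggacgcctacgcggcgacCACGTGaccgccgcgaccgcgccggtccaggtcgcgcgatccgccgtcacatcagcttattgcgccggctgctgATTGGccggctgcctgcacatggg
Abca1: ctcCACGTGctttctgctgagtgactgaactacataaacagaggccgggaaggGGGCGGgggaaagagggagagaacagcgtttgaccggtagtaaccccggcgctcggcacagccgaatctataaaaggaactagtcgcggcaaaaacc
In *Hmgcs1*, the sterol regulatory letters stand upstream of a CCAAT match on the other strand and 2 GGGCGG matches. *Mvd* and *Hsd17b7* each hold 2 CCAAT matches. *Insig1*, *Hsd17b7*, *Sc5d* and *Abca1* each hold the E-box.

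The libraries held 6117343 to 30544847 counted reads (median 15826651). Values are read counts scaled to a common library size (CPM), made comparable between libraries by the trimmed mean of M values (TMM). *Nampt* itself was lower in all 16 FANKO BAT samples than in all 16 WT BAT samples, by 2.31 (SE 0.07) on the log2 scale. In eWAT the difference of *Nampt* was -0.50 (SE 0.07), and it was -0.03 at ZT6 and -0.25 at ZT10, where it did not pass the test. Counts over the whole gene include exons outside the deleted one. Brown adipocyte markers (*Ucp1*, *Cidea*, *Elovl3* and *Ppargc1a*) summed to 4217 to 9741 CPM in WT BAT, 1239 to 3246 CPM in FANKO BAT, 8.52 to 22.99 CPM in WT eWAT and 36.5 to 78.5 CPM in FANKO eWAT, without overlap between the genotypes in either depot. The 8 macrophage markers summed to 105 to 200.1 CPM in WT BAT and 569.4 to 1375 CPM in FANKO BAT, and in FANKO BAT 7 of the 8 were higher and *Cd14* was lower. In eWAT that sum was 617 to 944.9 CPM in WT and 602.7 to 1088 CPM in FANKO. All 5 adipocyte markers were lower in FANKO BAT, and their sum fell from 10050 to 13160 CPM in WT to 4600 to 8089 CPM. In whole tissue, fewer cells of a type and less RNA per cell cannot be told apart. The part of these cell types in the results that follow was not tested. Skeletal muscle markers reached 397.8 CPM in WT BAT and 367.1 CPM in FANKO BAT and passed 100 CPM in 7 BAT libraries. They varied between single libraries, and were 1.17 to 10.5 CPM in the 4 WT BAT samples at ZT22. Over the day 0 of the 5 muscle markers were called for a genotype difference in BAT level. For a rhythm 0 were called in WT BAT and 0 in FANKO BAT. At ZT10 4 of the 5 muscle markers were called lower in FANKO BAT (list median -4.37 on the log2 scale), and at ZT22 0 were called by edgeR (list median 3.72). WT samples with the number 4 differed from the others of their group at ZT18 in many enzymes. Dixon's ratio, a test for 1 sample apart, did not flag their enzyme medians in either depot. The BAT sample was also the library with the highest muscle marker sum, 397.8 CPM. Replicate 4 had the lowest value of the 4 samples for 14 of the 19 enzymes in BAT and for 18 of 19 in eWAT, against 35.4% and 34.1% of all genes. Counts of calls, peak times and enzyme medians that rest on it are also given without it.

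In WT mice the median level of the cholesterol synthesis enzymes was on average higher at night in both depots. In FANKO mice that median varied less over the day. Single enzymes passed fewer tests. A rhythm was called for 9 of the 19 in WT BAT (13.9% of all genes) and 13 in WT eWAT (9.38%). A genotype difference in rhythm was called for 3 in BAT (2.76% of all genes) and 2 in eWAT (1.15%). The count in eWAT was 0 when each depot was fitted separately. For each enzyme the log2 CPM was centred on its mean over the 64 samples, and the median over the 19 enzymes was taken in each sample. In WT BAT that median was 0.12 ± 0.15 at ZT6, 0.14 ± 0.02 at ZT10, 0.58 ± 0.33 at ZT18 and 0.98 ± 0.19 at ZT22 (SD, n = 4). All 4 samples at ZT22, between 0.72 and 1.14, lay above all 8 samples at ZT6 and ZT10. In FANKO BAT the same median was -0.18 ± 0.30, -0.11 ± 0.22, -0.01 ± 0.29 and -0.03 ± 0.16 at the 4 times (SD, n = 4), and the samples of every time point overlapped. In WT eWAT it was -0.57 ± 0.41 at ZT6, -0.78 ± 0.23 at ZT10, -0.24 ± 0.70 at ZT18 and 0.08 ± 0.46 at ZT22. The WT eWAT samples at ZT22, between -0.48 and 0.61, lay above those at ZT10 but overlapped those at ZT6, between -1.15 and -0.27. WT replicate 4 at ZT18 stood at -1.27, while the other 3 samples lay between -0.01 and 0.29. Without replicate 4 the ZT18 mean was 0.10 ± 0.16 in WT eWAT and 0.73 ± 0.12 in WT BAT (SD, n = 3). In FANKO eWAT the 4 means lay between -0.11 and 0.03. FANKO BAT stood below WT without overlap at ZT10 and ZT22, and FANKO eWAT stood above WT without overlap at ZT6 and ZT10.

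**Figure D1:**
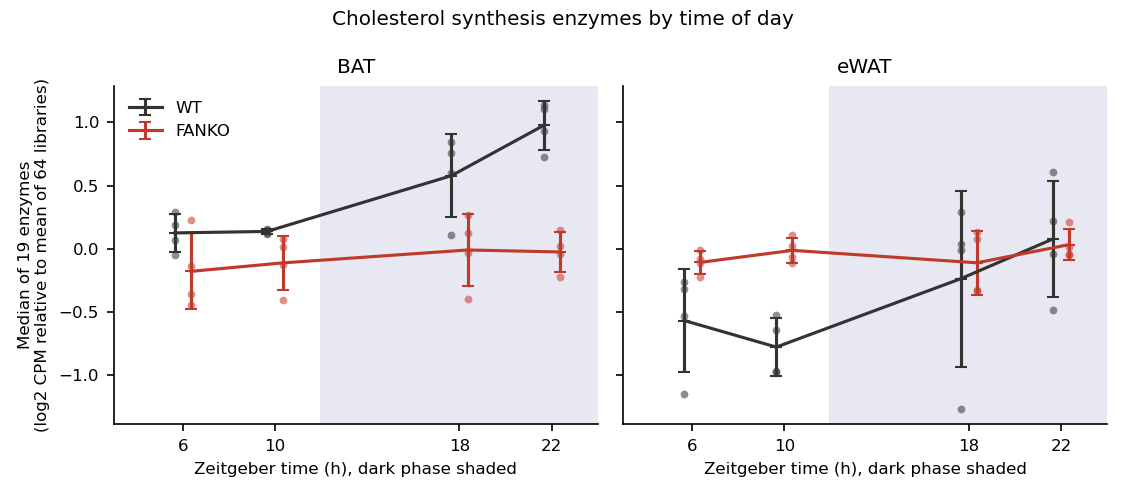
Median over the 19 enzymes of the centred log2 CPM (vertical axis) by zeitgeber time in hours (horizontal axis), in BAT (left) and eWAT (right). Points are samples, lines join the means and bars are SDs (n = 4); WT climbs from 0.12 at ZT6 to 0.98 at ZT22 in BAT, while the FANKO means stay between -0.18 and 0.03 in both depots.

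A 24-hour cosine was fitted to each gene in each depot and genotype, and its rhythm was tested with edgeR's quasi-likelihood test at a Benjamini-Hochberg adjusted p below 0.01 over all genes tested. In WT BAT 16 of the 30 genes were rhythmic, against 13.9% of all genes, and in WT eWAT also 16, against 9.38%. In FANKO BAT 0 of 30 passed this edgeR test, against 2.84% of all genes. DESeq2 also called 0, and 2 genes had an unadjusted p below 0.05. In FANKO eWAT 1 gene passed, *Abca1*, against 6.77%. Of the WT calls, 10 were made in both depots, which is 62.5% of each list. These were the regulators *Srebf2* and *Insig1*, the enzymes *Mvd*, *Fdft1*, *Sqle*, *Cyp51*, *Msmo1*, *Sc5d* and *Dhcr7*, and *Mylip*. All of these but *Sqle* and *Mylip* were listed by the study, from these same samples, among cholesterol genes that lost rhythm in both depots, so their count is not independent evidence of that loss. *Scap*, *Idi1*, *Lss*, *Stard4*, *Abca1* and *Abcg1* passed in WT BAT alone, and *Acat2*, *Hmgcs1*, *Pmvk*, *Fdps*, *Ggps1* and *Hsd17b7* in WT eWAT alone. *Insig2*, *Mvk*, *Tm7sf2*, *Nsdhl*, *Ebp*, *Npc1*, *Npc2* and *Soat1* passed in neither. Leaving out WT replicate 4 at ZT18 raised the counts to 22 in WT BAT and 21 in WT eWAT. Leaving out replicate 1 of every group lowered them to 8 and 6, and leaving out replicate 3 lowered that of WT eWAT to 5.

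The difference in rhythm between the genotypes was tested on its own. In BAT it passed for 6 of the 30 genes, *Insig1*, *Mvd*, *Fdft1*, *Sqle*, *Stard4* and *Abca1*, against 2.76% of all genes. In eWAT it passed for 2, *Hsd17b7* and *Sc5d*, against 1.15%. For the other genes, a rhythm called in WT and not in FANKO is not shown to differ. These counts moved with the samples used. Leaving out replicate 1, 2 or 3 of every group left 2, 1 and 0 called in BAT and 0 in eWAT each time. Without WT replicate 4 at ZT18 the counts were 9 in BAT and 7 in eWAT. In eWAT those 7 were *Insig1*, *Hmgcs1*, *Mvk*, *Fdps*, *Msmo1*, *Hsd17b7* and *Sc5d*. When each depot was fitted separately, 0 were called in eWAT. Between the WT depots the rhythm differed for 4 of the 30 genes, *Scap*, *Hmgcs1*, *Hsd17b7* and *Stard4*, against 6.98% of all genes. Without replicate 1, 2 or 3 of every group *Stard4* alone remained, with library size alone *Hmgcs1* and *Stard4*, and a replicate block shared by the depots gave 7.

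Amplitude was taken as the highest minus the lowest of the 4 time-point means of log2 CPM. Over the 19 enzymes its median was 0.96 in WT BAT and 0.21 in FANKO BAT, and 0.88 in WT eWAT and 0.30 in FANKO eWAT. Over all genes tested the medians were 0.43, 0.33, 0.37 and 0.35 in the same order. This measure grows with the spread between samples, which in eWAT was larger in WT. There the SD of the enzyme median within a time point was 0.23 to 0.70 in WT and 0.09 to 0.25 in FANKO. The part of this spread in the eWAT amplitudes was not tested. The amplitude was lower in FANKO for 27 of the 30 genes in BAT, against 64.2% of all genes, and for 26 in eWAT, against 54.7%. In WT, every enzyme had its highest mean at ZT18 or ZT22 in both depots, with 17 of 19 at ZT22 in BAT and 15 in eWAT. Without WT replicate 4 at ZT18 the peaks were at ZT22 for 15 enzymes in BAT and 10 in eWAT and at ZT18 for the other 4 and 9. The median amplitude of the enzymes was then 0.90 in WT BAT and 0.98 in WT eWAT, and the amplitude was lower in FANKO for 27 of the 30 genes in each depot. The lowest mean fell in the light phase for 18 enzymes in BAT and for 19 in eWAT. In FANKO BAT the peaks were spread over the day, with 2 enzymes at ZT6, 6 at ZT10, 4 at ZT18 and 7 at ZT22. In WT BAT 14 enzymes had all 4 samples at ZT22 above all 4 at ZT10, among 17 of the 30 genes, against 8.41% of all genes. In FANKO BAT the count was 4 of the 30 (4.01% of all genes), in WT eWAT 13 (9.5%) and in FANKO eWAT 2 (5.53%).

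**Figure D2:**
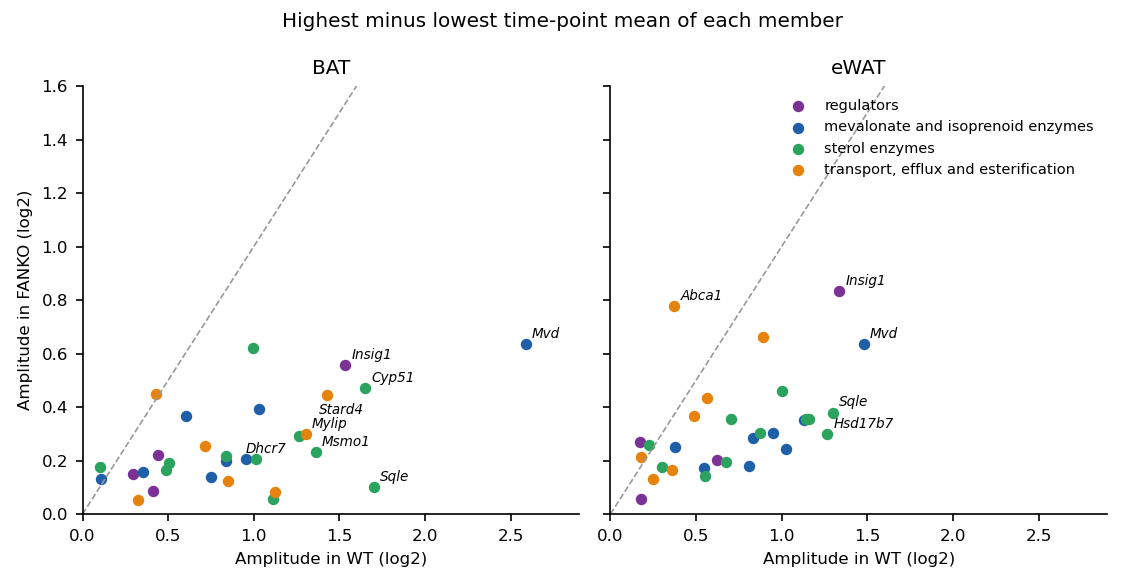
Amplitude of each of the 30 genes in FANKO (vertical axis, log2) against WT (horizontal axis, log2) in BAT (left) and eWAT (right), coloured by role; the axes have different ranges and the dashed line marks equal amplitudes. In BAT 27 genes lie below the line, with *Mvd* farthest to the right at 2.59 in WT and 0.63 in FANKO, and in eWAT *Abca1* lies above it.

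Averaged over the day and scaled by TMM, most of the 30 genes that differed between the genotypes were lower in FANKO BAT and higher in FANKO eWAT. In BAT, 21 differed in mean level between FANKO and WT (adjusted p below 0.01), 5 higher and 16 lower, against 67% of all genes, 33.1% higher and 33.9% lower. The enzymes made up 13 of the genes that fell and 1 of those that rose, *Dhcr7*. Their median difference was -0.52 on the log2 scale, against 0.00 over all genes. In eWAT 14 differed, 13 higher and 1 lower, against 50.3% of all genes, 27.6% higher and 22.8% lower. Of the 4 brown adipocyte markers, 1 was called higher in FANKO eWAT (list median 1.11 on the log2 scale), and their part in this result was not tested. Of the 13, 9 were enzymes, and the median over the enzymes was 0.29, against -0.02 over all genes. The difference between the depots in the genotype effect passed its own test for 23 of the 30 genes, 5 higher and 18 lower in BAT than in eWAT, against 64.3% of all genes. Of those 18, 15 were enzymes. The direction in BAT depends on how libraries were scaled. With library size alone, which moved the median of all genes by 0.58 in BAT and by -0.27 in eWAT, 17 genes were higher and 5 lower in BAT, 6 were higher and 9 lower in eWAT, and 13 were higher and 4 lower in the depot difference. Relative to the median of all genes, 21 of the 30 were below it in BAT and 11 of the 30 in eWAT under each of the 4 scalings. A change of scaling moves all genes and their median by nearly the same amount. These counts could therefore hardly differ between scalings, and they do not settle the direction.

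**Figure D3:**
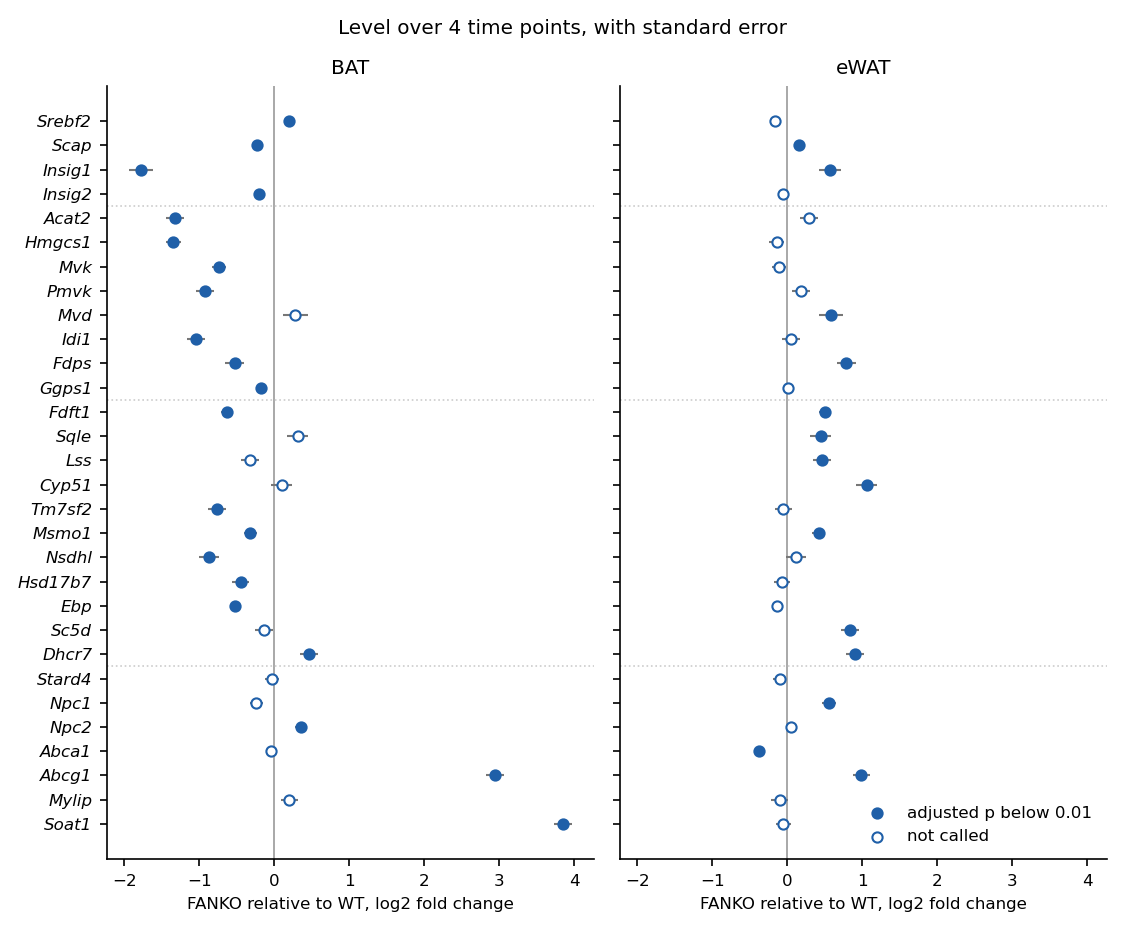
Difference in mean level between FANKO and WT (horizontal axis, log2 fold change) for each of the 30 genes (vertical axis, by role from regulators at the top to handling genes at the bottom) in BAT (left) and eWAT (right). Filled points passed an adjusted p of 0.01 and bars are standard errors. In BAT the mevalonate enzymes other than *Mvd* lie to the left, down to -1.35 for *Hmgcs1*, while *Soat1* and *Abcg1* lie at 3.85 and 2.94.

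By time of day, the enzymes that differed in BAT shifted from both directions in the light phase to lower in the dark phase. At ZT6 17 of the 30 genes differed (48.2% of all genes, 24.4% higher and 23.9% lower) and 8 of these were enzymes, 3 higher (*Mvd*, *Sqle* and *Dhcr7*) and 5 lower. At ZT10 15 differed (45.7%, 23.3% higher and 22.4% lower), with 2 enzymes higher and 6 lower. At ZT18 15 differed (44%, 21.5% higher and 22.5% lower), with 10 enzymes, all lower. At ZT22 15 differed (45.3%, 22.6% higher and 22.7% lower), with 12 enzymes, all lower. The 4 FANKO samples lay below the 4 WT samples without overlap for 13 enzymes at ZT22, against 23.8% of all genes. In eWAT most calls were made in the light phase. At ZT6 9 of the 30 genes differed (27% of all genes, 16.9% higher and 10.1% lower), all higher, and 6 of them were enzymes. At ZT10 11 differed (24.5%, 16% higher and 8.46% lower), all higher, with 9 enzymes. At ZT18 1 gene differed, *Abca1*, which was lower (13.6% of all genes, 8.54% higher and 5.1% lower), or 4 genes without WT replicate 4. At ZT22 7 differed, 2 higher and 5 lower (20.6%, 12.6% higher and 8.02% lower), with 3 enzymes, all lower. At ZT10 in eWAT the FANKO samples lay above the WT samples without overlap for 13 enzymes, against 22.2% of all genes, and at ZT18 they did so for 0 (13.5%). Leaving out 1 replicate number of every group moved these counts. In eWAT they fell to 3 at ZT6 without replicate 2, to 6 at ZT10 without replicate 1, 2 or 3 and to 3 at ZT22 without replicate 3, and at ZT18 the count was 0, 2 and 3 without replicate 1, 3 and 4. In BAT they fell to 9 and 10 at ZT6 without replicate 1 and 2, to 8 at ZT10 without replicate 2 or 3 and to 9 at ZT18 without replicate 1 or 2. Whether the genotype difference itself differed between time points was tested only as the difference in rhythm.

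Among the regulators, *Insig1*, whose protein retains SCAP when sterols are plentiful, had the highest level per kilobase of exon of all 30 genes in WT BAT, 295 CPM per kb. At ZT22 its level in WT BAT was 1355, 1374, 1283 and 1370 CPM, against 208, 205, 187 and 210 CPM in FANKO. At ZT6 it was 495, 495, 502 and 379 CPM in WT and 175, 231, 345 and 204 CPM in FANKO. The genotypes did not overlap at any of the 4 times, and the 16 FANKO samples lay below the 16 WT samples, as did those of 10% of all genes. The difference in mean level was -1.78 (SE 0.16, adjusted p = 1.1e-15), widening from -0.97 at ZT6 to -2.73 at ZT22. The WT rhythm (adjusted p = 0.00037, amplitude 1.53 (SE 0.10)) was not called in FANKO BAT (adjusted p = 0.424, amplitude 0.56 (SE 0.14)), and the difference in rhythm passed (adjusted p = 0.00851), though not with time as a factor, without replicate 1, 2 or 3, or without the 7 BAT libraries with muscle markers above 100 CPM (adjusted p from 0.0148 to 0.117). In eWAT *Insig1* moved the other way, by 0.57 (SE 0.15, adjusted p = 0.00107), a call lost with library size alone or without replicate 1 or 2. There its WT samples at ZT10 were 162, 217, 276 and 202 CPM and its FANKO samples 726, 544, 418 and 433 CPM, without overlap. At ZT18 the eWAT genotypes overlapped, with WT at 590, 600, 784 and 158 CPM and FANKO at 739, 847, 523 and 470 CPM.

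*Srebf2*, the gene of the transcription factor SREBP-2, kept to a narrow range. In WT BAT the 16 samples ranged from 23 to 43.4 CPM with a median of 28.7, and in FANKO BAT from 30.6 to 41.1 CPM with a median of 33.3. Its mean level was higher in FANKO BAT by 0.19 (SE 0.06, adjusted p = 0.00407), a call that was lost without replicate 2 or replicate 4. At ZT10 the FANKO samples, 30.9, 33, 32.5 and 32.6 CPM, lay above the WT samples, 26.1, 23, 24.1 and 26.7 CPM. *Srebf2* thus rose in FANKO BAT, where 13 enzymes fell, and its call at ZT10 was lost without replicate 1, 2, 3 or 4. In eWAT its WT samples at ZT22 were 38.8, 44.9, 38.2 and 41 CPM, all above the FANKO samples, 28, 32.2, 25.2 and 31.6 CPM (log2 difference -0.48 (SE 0.12, adjusted p = 0.00125)). The WT rhythm of *Srebf2* had an amplitude of 0.44 (SE 0.17) in BAT and 0.62 (SE 0.13) in eWAT. *Scap*, the escort of SREBP-2, fell in FANKO BAT by 0.23 (SE 0.05, adjusted p = 1.4e-05), and in WT BAT it was lowest at ZT22, when the enzymes were highest. At that time its WT BAT samples were 37.4, 37.4, 33.3 and 34.5 CPM, against 48.9, 50.5, 47.2 and 43.1 CPM at ZT10, without overlap. Its rhythm differed between the depots in WT (adjusted p = 0.00313), with the highest mean at ZT10 in BAT and at ZT22 in eWAT. In eWAT *Scap* was higher in FANKO by 0.16 (SE 0.05, adjusted p = 0.00171), a call lost under 8 alternatives, DESeq2 among them. *Insig2*, the second retention factor, differed by -0.20 (SE 0.05, adjusted p = 0.00069) in BAT and by -0.06 (SE 0.05, adjusted p = 0.308) in eWAT. With library size alone, the BAT differences of *Scap* and *Insig2* were 0.36 and 0.40, in the opposite direction.

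Of the 8 mevalonate and isoprenoid enzymes, 7 fell in FANKO BAT, all but *Mvd*, against 33.9% of all genes. The median over the 8 was -0.84 on the log2 scale. In WT BAT each of the 8 had its highest mean at ZT22, though the amplitude of *Ggps1* was only 0.11 (SE 0.08). Without WT replicate 4 at ZT18, *Mvd* had its highest mean at ZT18. *Hmgcs1*, which condenses acetoacetyl-CoA to the precursor of mevalonate, was 433, 488, 406 and 453 CPM in WT BAT at ZT22 and 157, 137, 133 and 160 CPM in FANKO. At ZT6 it was 347, 409, 318 and 409 CPM in WT and 122, 131, 223 and 128 CPM in FANKO, so the groups did not overlap in the light phase either. Its mean level differed by -1.35 (SE 0.10, adjusted p = 4e-19). The antisense gene *Gm48342* overlaps *Hmgcs1* over 6190 bases, so reads may be shared. *Hmgcs1* showed no called rhythm in WT BAT (adjusted p = 0.527), where its lowest mean was at ZT18, 298 ± 71.4 CPM (SD, n = 4). In WT eWAT it climbed from 148 ± 14.2 CPM (SD, n = 4) at ZT10 to 308 ± 82.5 CPM (SD, n = 4) at ZT22, and its rhythm differed between the depots (adjusted p = 0.00513). In FANKO eWAT its 16 samples kept within 152 to 211 CPM with a median of 187. *Acat2*, the cytosolic thiolase of the first step, ranged from 178 to 408 CPM with a median of 273 in WT BAT and from 87.9 to 145 CPM with a median of 115 in FANKO BAT. These ranges did not overlap, and the difference was -1.32 (SE 0.12, adjusted p = 1.5e-15). In eWAT the *Acat2* ranges, 29.6 to 143 CPM with a median of 62.2 in WT and 62.1 to 127 CPM with a median of 83.9 in FANKO, overlapped. *Pmvk*, a mevalonate pathway kinase, was also lower in all FANKO BAT samples (47.2 to 78.5 CPM with a median of 69.4) than in any WT BAT sample (82.8 to 198 CPM with a median of 123).

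*Idi1*, the isomerase of isopentenyl diphosphate, climbed at night in WT BAT. Its WT BAT samples rose from 6.81, 8.22, 9.44 and 9.24 CPM at ZT6 to 16.3, 20.2, 15.2 and 17.4 CPM at ZT22, without overlap. The FANKO BAT samples were 3.81, 4.81, 8.94 and 4.62 CPM and 5.53, 7.03, 6.27 and 6.32 CPM at the same times, which overlap. The mean level fell by 1.04 (SE 0.12, adjusted p = 1.8e-11) on the log2 scale. For *Idi1* the difference in rhythm itself did not pass (adjusted p = 0.316). *Mvd*, which decarboxylates mevalonate diphosphate, had the largest amplitude of the 30 genes in WT BAT, 2.59 (SE 0.27). Its WT BAT samples were 7.38, 4.39, 7.65 and 6.89 CPM at ZT6 and 53.1, 41.5, 39.3 and 27.5 CPM at ZT22. In FANKO BAT they were 18.8, 21.6, 25.7 and 16.6 CPM at ZT6 and 22.4, 28.8, 22.7 and 26.1 CPM at ZT22. The FANKO samples thus lay above WT at ZT6 without overlap, by 1.61 (SE 0.35, adjusted p = 8.1e-05). The difference in rhythm passed (adjusted p = 0.00095), though not without replicate 1, 2 or 3 of every group. Over the day the mean level of *Mvd* differed by 0.28 (SE 0.17, adjusted p = 0.126). In eWAT it was higher in FANKO by 0.59 (SE 0.16, adjusted p = 0.00165), a call lost with library size alone or without replicate 2. The whole of *Mvd* is overlapped by *Gm20388* on the opposite strand, and whether the counting used strand was not given in the sources used here.

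The remaining mevalonate and isoprenoid enzymes were *Mvk*, *Fdps* and *Ggps1*. The kinase gene *Mvk* fell in BAT by 0.74 (SE 0.09, adjusted p = 2e-10) on the log2 scale and differed by -0.11 (SE 0.09, adjusted p = 0.275) in eWAT. *Fdps*, which makes farnesyl diphosphate, moved in opposite directions, by -0.53 (SE 0.13, adjusted p = 0.00024) in BAT and 0.79 (SE 0.13, adjusted p = 7.5e-07) in eWAT. In eWAT at ZT10 *Fdps* was 4.49, 5.0, 9.45 and 8.26 CPM in WT and 15.8, 15, 19 and 18.5 CPM in FANKO, without overlap. *Fdps* overlaps *Gm43738* on the same strand over 7512 bases, so its reads may be shared. *Ggps1*, at the branch toward protein prenylation, differed by -0.18 (SE 0.04, adjusted p = 0.00037) in BAT, or 0.41 with library size alone, and was not called in eWAT.

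The 11 enzymes from squalene to cholesterol divided in BAT. Of these, 6 fell and 1 rose, with a median of -0.33 on the log2 scale over the 11, and 67% of all genes were called in that comparison. In eWAT 7 rose and 0 fell, with a median of 0.45, against 27.6% of all genes higher and 22.8% lower. *Sqle*, the squalene epoxidase, crossed between the genotypes in the course of the day. Its WT BAT samples were 27.9, 25.9, 25.9 and 33.3 CPM at ZT10 and 103, 90.8, 99.3 and 76.1 CPM at ZT22. The FANKO BAT samples were 51.4, 52.7, 73.2 and 66.2 CPM and 58.2, 66.2, 45.9 and 62.3 CPM. At ZT10 all FANKO samples lay above all WT samples, and at ZT22 all lay below. The difference was 1.11 (SE 0.29, adjusted p = 0.0008) at ZT10 and -0.66 (SE 0.28, adjusted p = 0.0369) at ZT22. The amplitude was 1.70 (SE 0.13) in WT and 0.10 (SE 0.21) in FANKO. The difference in rhythm passed (adjusted p = 0.00025), a call lost without replicate 1, 2 or 3 of every group. Averaged over the day, *Sqle* differed by 0.31 (SE 0.14, adjusted p = 0.0339) in BAT. In eWAT it was higher in FANKO by 0.45 (SE 0.14, adjusted p = 0.00422), a call lost under 6 alternatives, and at ZT10 the WT samples, 11.7, 12.1, 14.1 and 14.9 CPM, lay below the FANKO samples, 19.9, 29.6, 30.8 and 29.1 CPM.

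*Cyp51*, the lanosterol demethylase, was higher at night in WT BAT and high at each time in FANKO eWAT. In WT BAT it went from 42.3 ± 3.45 CPM (SD, n = 4) at ZT6 to 137 ± 39.6 CPM (SD, n = 4) at ZT22. In FANKO BAT the means at those times were 71.7 ± 13 CPM (SD, n = 4) and 97.4 ± 12.1 CPM (SD, n = 4). In eWAT at ZT10 its WT samples were 30.2, 39.1, 48.5 and 44.9 CPM and its FANKO samples 117, 136, 121 and 116 CPM, without overlap. At ZT22 the WT eWAT samples, 113, 78.7, 137 and 50.4 CPM, overlapped the FANKO samples, 152, 149, 162 and 129 CPM. Its eWAT difference of 1.06 (SE 0.14, adjusted p = 1.1e-09) was the largest among the enzymes in that depot. *Sc5d*, the lathosterol oxidase, climbed in WT eWAT too, with WT samples of 139, 156, 169 and 160 CPM at ZT10 and 426, 336, 469 and 217 CPM at ZT22. FANKO eWAT samples of *Sc5d* were 388, 469, 467 and 443 CPM at ZT10 and 448, 376, 407 and 419 CPM at ZT22. All FANKO samples were thus above all WT samples at ZT10, and the groups overlapped at ZT22. The mean level rose by 0.84 (SE 0.12, adjusted p = 9e-09), and the difference in rhythm passed in eWAT (adjusted p = 0.00683). That call was lost when the depots were fitted separately, when time was a factor, with library size alone or without replicate 1, 2 or 3. In FANKO BAT *Sc5d* was the gene with the smallest p for a rhythm, and it did not pass (adjusted p = 0.117).

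*Hsd17b7*, a ketosteroid reductase of the pathway, was rhythmic in WT eWAT and not called in WT BAT. In WT eWAT it climbed from 7.28, 10.5, 8.68 and 9.46 CPM at ZT10 to 24.4, 22.4, 27.2 and 14.6 CPM at ZT22, without overlap. In FANKO eWAT it was 11.3, 14.9, 15.4 and 18.3 CPM at ZT10 and 11.3, 14.9, 11.9 and 13.1 CPM at ZT22, which overlap. The FANKO difference was 0.72 (SE 0.21, adjusted p = 0.00571) at ZT10 and -0.79 (SE 0.20, adjusted p = 0.00207) at ZT22, with opposite signs that left a mean difference of -0.07 (SE 0.11, adjusted p = 0.575). The call at ZT10 was lost under 9 alternatives, and that at ZT22 without replicate 1, 2 or 3. The difference in rhythm in eWAT passed (adjusted p = 0.00176), though not when each depot was fitted separately or without replicate 1, 2 or 3. The adjusted p of its rhythm in WT BAT was 0.888, and the difference in rhythm between the WT depots passed (adjusted p = 0.00539). The mean level in BAT differed by -0.45 (SE 0.11, adjusted p = 0.00016), and by 0.13 with library size alone.

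Values of the other sterol enzymes are given here although the rule for naming genes did not reach them, so they were chosen after their values were seen. *Fdft1*, the squalene synthase, had WT BAT samples of 213, 190, 162 and 254 CPM at ZT18, all above the FANKO samples, 115, 89.5, 101 and 76 CPM. It fell in BAT by 0.63 (SE 0.08, adjusted p = 6.2e-10) on the log2 scale and rose in eWAT by 0.50 (SE 0.08, adjusted p = 5.7e-07). In both WT depots it was higher at ZT18 than at ZT22, unlike most enzymes. Without WT replicate 4 at ZT18, however, 4 of the 19 enzymes in BAT and 9 in eWAT had their highest mean at ZT18. The difference in rhythm of *Fdft1* in BAT (adjusted p = 0.00601) was lost under 8 alternatives, WT replicate 4 at ZT18 left out among them. *Msmo1*, the methylsterol monooxygenase, fell in BAT by 0.32 (SE 0.09, adjusted p = 0.00194) and rose in eWAT by 0.42 (SE 0.09, adjusted p = 8.5e-05). *Dhcr7*, whose enzyme reduces the last double bond, was higher in FANKO in both depots, by 0.46 (SE 0.12, adjusted p = 0.00041) in BAT and 0.90 (SE 0.12, adjusted p = 4.8e-09) in eWAT. At ZT10 *Dhcr7* was 19.1, 17.8, 23 and 18.2 CPM in WT BAT and 33.4, 33.4, 38.2 and 41.5 CPM in FANKO BAT, without overlap. At ZT22 the BAT samples overlapped, at 65.1, 49, 52.9 and 28.5 CPM in WT and 42.8, 47.5, 37.3 and 45.5 CPM in FANKO. The lanosterol synthase gene *Lss* differed by -0.33 (SE 0.12, adjusted p = 0.0128) in BAT and rose by 0.46 (SE 0.12, adjusted p = 0.00096) in eWAT, a call lost under 4 alternatives. *Lss* overlaps the antisense gene *4930483K19Rik* over 11268 bases. The sterol isomerase gene *Ebp* was lower in all 16 FANKO BAT samples (15.6 to 21.1 CPM with a median of 17.2) than in all 16 WT samples (22.5 to 31.9 CPM with a median of 25.1). *Nsdhl* and *Tm7sf2*, which act on the sterol ring, fell in BAT by 0.87 (SE 0.13, adjusted p = 5.6e-08) and 0.77 (SE 0.12, adjusted p = 3.2e-08) on the log2 scale and were not called in eWAT. With library size alone the BAT values of *Msmo1* and *Ebp* were 0.27 and 0.08.

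**Figure D4:**
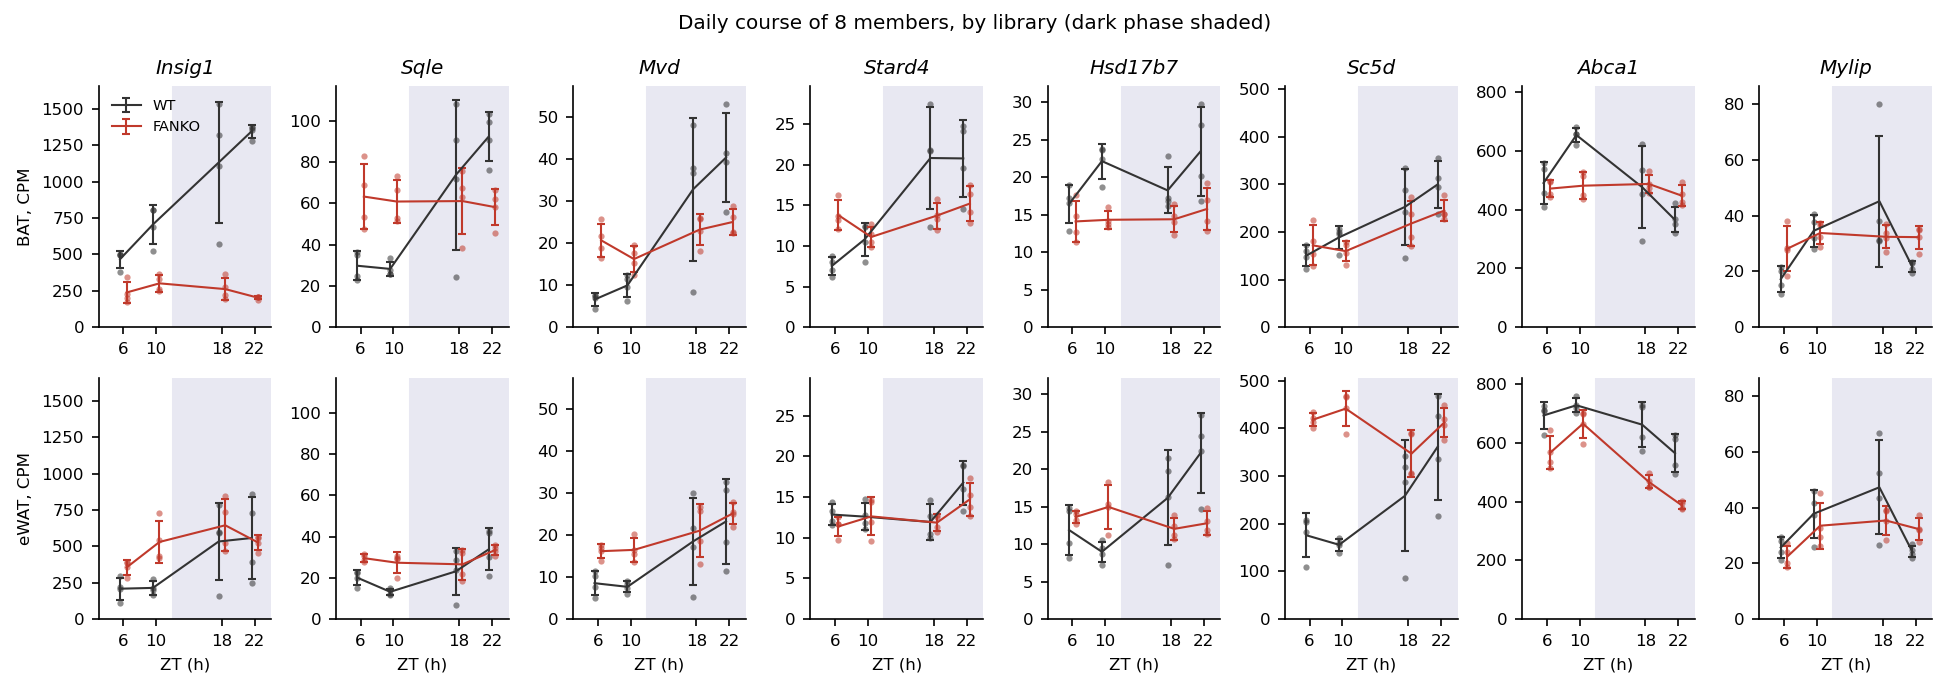
CPM (vertical axis) by zeitgeber time in hours (horizontal axis) for 8 genes, BAT above and eWAT below, with the same vertical scale for a gene in both depots. Points are samples, lines join the means and bars are SDs (n = 4); *Sqle*, *Mvd* and *Stard4* climb at night in WT BAT and change less in FANKO BAT, and *Abca1* falls toward ZT22 in WT BAT and in FANKO eWAT.

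Of the 7 genes that transport, export or esterify cholesterol, 3 rose in FANKO BAT and 0 fell, and in eWAT 2 rose and 1 fell, against 67% and 50.3% of all genes called. *Stard4*, a cytosolic sterol carrier, had the smallest p for a rhythm in WT BAT (adjusted p = 5.2e-10). Its WT BAT samples were 7.07, 8.08, 6.17 and 8.81 CPM at ZT6 and 27.5, 21.8, 21.7 and 12.3 CPM at ZT18, without overlap. In FANKO BAT they were 13.7, 12, 16.3 and 13.2 CPM and 12, 13.8, 15.8 and 13.3 CPM, which overlap. The genotype difference changed sign, from 0.88 (SE 0.18, adjusted p = 2.4e-05) at ZT6 to -0.61 (SE 0.16, adjusted p = 0.00134) at ZT18. The difference in rhythm passed (adjusted p = 0.00016), though not without replicate 1 or 3 of every group. In WT eWAT no rhythm of *Stard4* was called (adjusted p = 0.155), and the difference in rhythm between the WT depots passed (adjusted p = 2.2e-05). The mean level of *Stard4* over the day was not called in either depot. *Npc1* and *Npc2*, which move cholesterol out of lysosomes, were called in different depots. *Npc1* differed by -0.24 (SE 0.09, adjusted p = 0.0118) in BAT and rose by 0.56 (SE 0.09, adjusted p = 1.9e-07) in eWAT, whereas *Npc2* rose by 0.35 (SE 0.07, adjusted p = 9.6e-06) in BAT and was not called in eWAT. At ZT22 in eWAT *Npc1* was 46.9, 52.5, 47.4 and 50.9 CPM in WT and 83.8, 81.4, 86 and 82.8 CPM in FANKO, without overlap.

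*Abca1*, the exporter of cholesterol to lipid-poor apolipoprotein, was higher by day, opposite to the enzymes. In WT BAT its samples were 657, 658, 681 and 621 CPM at ZT10 and 422, 368, 351 and 320 CPM at ZT22, without overlap. In FANKO BAT they were 514, 529, 436 and 449 CPM and 416, 454, 495 and 428 CPM, which overlap. The amplitude was 0.85 (SE 0.09) in WT and 0.12 (SE 0.07) in FANKO, and the difference in rhythm passed in BAT (adjusted p = 0.00609), a call lost under 6 alternatives. In eWAT the order was the reverse, with an amplitude of 0.37 (SE 0.09) in WT and 0.78 (SE 0.06) in FANKO. FANKO eWAT samples of *Abca1* were 700, 699, 664 and 598 CPM at ZT10 and 402, 396, 376 and 377 CPM at ZT22, against 730, 761, 702 and 720 CPM and 613, 627, 494 and 525 CPM in WT. This was the rhythm called in FANKO eWAT (adjusted p = 1.7e-06), but the difference in rhythm between the genotypes did not pass there (adjusted p = 0.216). The mean level fell in eWAT by 0.37 (SE 0.06, adjusted p = 1.6e-07) on the log2 scale and was not called in BAT. *Mylip*, which marks lipoprotein receptors for degradation, had its highest mean at ZT18 in both WT depots, though in WT BAT at ZT10 without replicate 4 at ZT18. Its WT BAT samples were 20.3, 21.7, 15 and 11.9 CPM at ZT6, 40.5, 37.7, 32.1 and 28 CPM at ZT10 and 19.4, 21, 23.4 and 23.1 CPM at ZT22. At ZT18 they were 38.3, 31.1, 31.4 and 80.1 CPM, and the highest was replicate 4. The rhythm was called in WT BAT (adjusted p = 2.1e-06) and WT eWAT (adjusted p = 0.00083), and the genotype difference in rhythm had an adjusted p of 0.0154 in BAT and 0.532 in eWAT.

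The largest differences in mean level among the 30 genes, in BAT, were in *Soat1*, which esterifies cholesterol for storage, and *Abcg1*, which exports it to high-density lipoprotein. *Soat1* ranged from 2.73 to 5.30 CPM with a median of 3.46 in WT BAT and from 29.3 to 83 CPM with a median of 47.7 in FANKO BAT. The ranges did not overlap, as was the case for higher values in 12.5% of all genes, and the log2 difference was 3.85 (SE 0.12, adjusted p = 2.3e-36). In eWAT *Soat1* ranged from 16 to 28.9 CPM with a median of 21.2 in WT and from 16.6 to 25.1 CPM with a median of 20.6 in FANKO, and differed by -0.05 (SE 0.10, adjusted p = 0.701). *Abcg1* ranged from 6.19 to 17.7 CPM with a median of 10.1 in WT BAT and from 54.2 to 116 CPM with a median of 74.5 in FANKO BAT, again without overlap (log2 difference 2.94 (SE 0.12, adjusted p = 1.6e-30)). In eWAT it was higher in FANKO as well, by 0.99 (SE 0.11, adjusted p = 8.9e-12), with ranges of 17.4 to 55.1 CPM with a median of 23.1 in WT and 36.3 to 69.3 CPM with a median of 51.5 in FANKO. The depot difference in the genotype effect was 3.89 for *Soat1* and 1.95 for *Abcg1*. The macrophage marker sums of WT BAT and FANKO BAT did not overlap either, with medians of 117.2 and 808.4 CPM. In eWAT the marker sums of the genotypes overlapped, with medians of 802.6 and 795.2 CPM. There *Soat1* overlapped too, while all 16 FANKO values of *Abcg1* lay above 15 of the 16 WT values. The part of macrophages in these levels was not tested.

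**Figure D5:**
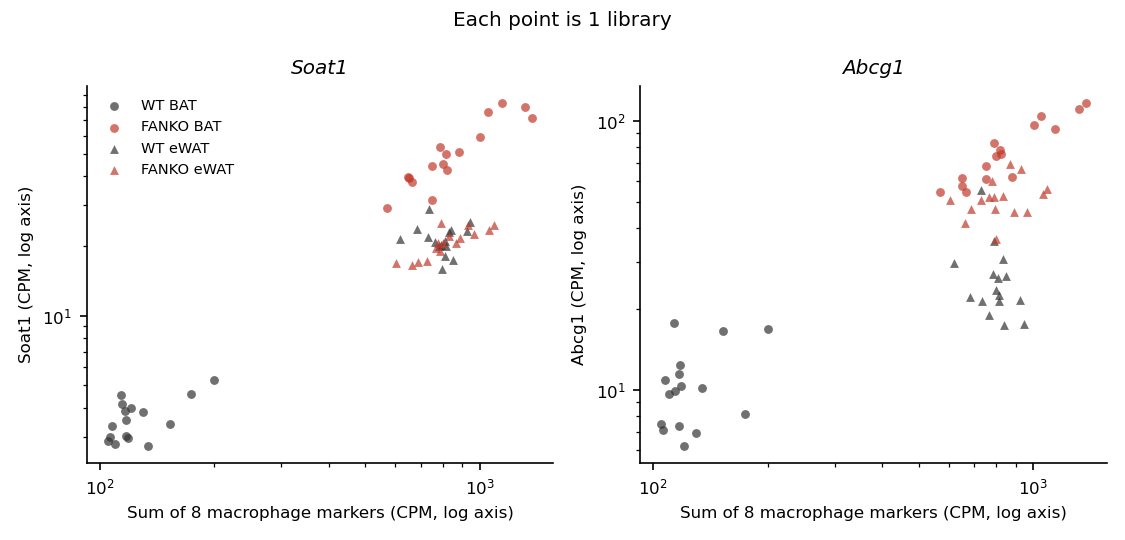
CPM of *Soat1* (left) and *Abcg1* (right) on the vertical axis against the summed CPM of 8 macrophage markers on the horizontal axis, both on log axes, for each of the 64 samples. WT BAT lies apart at marker sums of 105 to 200.1 CPM, FANKO BAT lies at 569.4 to 1375 CPM with the highest values of both genes, and WT and FANKO eWAT share one range of marker sums but differ in *Abcg1*.

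Levels were also compared between the depots within a genotype. In WT, 20 of the 30 genes differed between BAT and eWAT, 15 higher in BAT and 5 lower, against 73.7% of all genes, 32.7% higher and 41.1% lower. In FANKO 16 differed, 8 higher and 8 lower, against 59.7% of all genes, 28.1% higher and 31.6% lower. *Acat2* was higher in WT BAT by 2.04 (SE 0.12, adjusted p = 2.7e-23) and in FANKO BAT by 0.43 (SE 0.12, adjusted p = 0.0009). *Insig1* was higher in BAT in WT, with a log2 difference of 1.33 (SE 0.15, adjusted p = 1.7e-11), and lower in BAT in FANKO, at -1.02 (SE 0.15, adjusted p = 4.1e-08). *Soat1* was lower in BAT in WT, at -2.58 (SE 0.12, adjusted p = 2.2e-28), and higher in BAT in FANKO, at 1.32 (SE 0.10, adjusted p = 3.3e-18). *Insig2* was lower in BAT in both genotypes, at -0.49 (SE 0.05, adjusted p = 9.1e-13) and -0.63 (SE 0.05, adjusted p = 2.1e-16). With library size alone the median of all genes moved by -0.86 in the WT depot comparison, and 9 of the 30 genes were then higher and 15 lower in BAT.

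Another 30 genes of sterol and isoprenoid metabolism were counted beside these. In BAT 21 of them differed between the genotypes, 8 higher and 13 lower, close to the 67% of all genes (33.1% higher and 33.9% lower). In eWAT 19 differed, 17 higher and 2 lower, against 50.3% (27.6% higher and 22.8% lower). The smallest p in BAT belonged to *Nceh1*, a cholesteryl ester hydrolase, at 3.54 (SE 0.11), and to the lipoprotein receptor gene *Vldlr*, at -2.09 (SE 0.09). In eWAT *Cyp27a1*, an oxysterol-producing enzyme, was higher by 0.85 (SE 0.06). In WT mice the rhythm test passed for 7 of these genes in BAT, against 13.9% of all genes, and for 2 in eWAT, below the 9.38% of all genes. In FANKO, edgeR called 0 in BAT, where 5 had an unadjusted p below 0.05, and 3 in eWAT, against 2.84% and 6.77% of all genes. The difference in rhythm passed for *Erlin2*, a sterol-sensing partner of the INSIG proteins, in BAT (adjusted p = 5.7e-07), and for *Nr1h3*, which encodes a liver X receptor, in eWAT (adjusted p = 0.00163). *Erlin2* was 119, 111, 142 and 134 CPM at ZT10 and 64.1, 75.5, 68.9 and 83.8 CPM at ZT22 in WT BAT, higher by day. In FANKO BAT it was 69.2, 59.6, 66.8 and 71.3 CPM at ZT10 and 60.6, 60.2, 52.8 and 62.3 CPM at ZT22, below WT without overlap at both times.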

How the data were processed

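Total RNA was depleted of ribosomal RNA and sequenced with a stranded TruSeq kit. The authors aligned reads to GRCm38.p5 with STAR (version 2.5.3a) and counted them per gene with featureCounts (version 1.5.3), and the deposited table holds raw counts for 52636 genes in 64 samples. The strand and multi-mapping settings of the counting are not given in the sources used here.

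Genes were kept with filterByExpr (minimum count 10, minimum total 15), which left 20249. Counts were scaled by TMM and fitted in edgeR (version 4.0.16, quasi-likelihood) to all 64 samples in a model with a level and a cosine and sine of 24 h for each depot and genotype (12 coefficients). A model with 16 group means gave the contrasts at each time point. P-values were two-sided and Benjamini-Hochberg adjusted over all genes tested, and adjusted p below 0.01 was called. Nothing in the labels says more of the 4 samples of a group than that they are separate samples, so p-values measure the spread between these samples. CPM were counts divided by library size times TMM factor, and log2 values used a prior count of 2. Fold changes of lowly counted genes are less certain, and totals ran from 6117343 to 30544847 counts.

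Alternatives were DESeq2 (version 1.42.0), size factors by relative log expression (RLE), library size alone, no filter or a minimum count of 50, a replicate block, separate fits, time as a factor, an FDR of 0.05, a prior count of 0.5, amplitude from the fitted cosine and leaving out each replicate number. Leaving out WT replicate 4 at ZT18, for calls, amplitudes and enzyme medians, and the 7 BAT libraries with muscle markers above 100 CPM, was chosen after seeing the data. The scripts were tested on simulated data. The 30 genes, the gene lists and the tests were chosen with earlier results of these data known. Values by sample or time were to be given for *Srebf2*, *Insig1*, *Hmgcs1*, *Idi1*, *Sqle*, *Abca1*, *Abcg1* and *Mylip* and for the 2 members of smallest p in every 1 of 12 tests. Such values of *Pmvk*, *Fdps*, *Fdft1*, *Dhcr7*, *Ebp* and *Npc1* were chosen after they were seen. R (version 4.3.3) and Python (version 3.11.15) were used. Gene models were GENCODE M21 and promoters RefSeq GRCm38.p6.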

Additional observations from a re-analysis of the deposited data

Results flagged for a closer look

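In 25 of the 496 groups of 4 samples examined, 1 sample stood apart from the other 3 by Dixon's ratio at the 95% level, which chance does in about 1 of 20 groups. All values are CPM. In WT BAT the sample apart was the lowest for *Insig1* at ZT6 (379, next 494) and *Mvk* at ZT10 (17, next 20.3). It was the highest there for *Dhcr7* at ZT6 (27.8, next 21.8), *Npc1* at ZT10 (126, next 97.4), *Hsd17b7* at ZT18 (22.8, next 17.3), *Mylip* at ZT18 (80.1, next 38.3) and *Acat2* at ZT22 (408, next 376). In FANKO BAT it was the highest at ZT6 for *Hmgcs1* (223, next 131) and *Npc2* (626, next 572). At ZT18 in FANKO BAT it was the highest for *Scap* (42.3, next 36.1) and *Tm7sf2* (10.1, next 6.38) and the lowest for *Insig2* (26.2, next 32.4), *Pmvk* (47.2, next 69.5), *Cyp51* (69.2, next 97.9) and *Dhcr7* (27.8, next 37.8). In WT eWAT it was the lowest at ZT6 for *Dhcr7* (5.48, next 11.1) and *Abca1* (626, next 710), and the highest for *Npc1* at ZT18 (83.5, next 50.7) and *Idi1* at ZT22 (10.6, next 6.55). In FANKO eWAT it was the highest for *Dhcr7* at ZT6 (29.8, next 22.5), *Lss* at ZT10 (104, next 84.2), *Mvk* at ZT18 (22.6, next 19.3), and *Fdps* (17.9, next 15.7) and *Abcg1* (53.4, next 47.2) at ZT22, and the lowest for *Sqle* at ZT10 (19.9, next 29.1).

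The genotype difference in mean level differed between the depots for 23 of the 30 genes by the interaction test in edgeR, at adjusted p below 0.01, as it did for 64.3% of all genes. The values are the BAT difference minus the eWAT difference on the log2 scale. Among the regulators it was -2.34 for *Insig1*, -0.39 for *Scap* and 0.35 for *Srebf2*. Among the mevalonate enzymes it was -1.61 for *Acat2*, -1.32 for *Fdps*, -1.21 for *Hmgcs1*, -1.10 for *Pmvk*, -1.08 for *Idi1*, -0.63 for *Mvk* and -0.18 for *Ggps1*. Among the sterol enzymes it was -1.12 for *Fdft1*, -0.99 for *Nsdhl*, -0.99 for *Sc5d*, -0.96 for *Cyp51*, -0.79 for *Lss*, -0.74 for *Msmo1*, -0.73 for *Tm7sf2* and -0.37 for *Ebp*. Among the handling genes it was -0.80 for *Npc1*, 0.30 for *Npc2*, 0.32 for *Abca1*, 1.95 for *Abcg1* and 3.89 for *Soat1*. The call of *Ggps1* was lost under 11 alternatives, DESeq2 and each replicate left out among them. For 8 of these genes the sign turned with library size alone.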

How the results depend on the processing

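With library size alone, values between the genotypes turned positive in BAT for *Scap* (0.36), *Insig2* (0.40), *Fdps* (0.06), *Ggps1* (0.41), *Lss* (0.25), *Msmo1* (0.27), *Hsd17b7* (0.13), *Ebp* (0.08) and *Npc1* (0.34) over the day. By time they did so for *Insig2* (0.17), *Ebp* (0.05) and *Npc1* (0.03) at ZT6, *Scap* (0.23), *Insig2* (0.25), *Mvk* (0.02), *Ebp* (0.02) and *Abca1* (0.14) at ZT10, *Scap* (0.33), *Ebp* (0.18) and *Stard4* (0.01) at ZT18 and *Ebp* (0.06) at ZT22. In eWAT *Scap* turned to -0.08. Between the WT depots *Scap* (-0.36), *Tm7sf2* (-0.20) and *Hsd17b7* (-0.22) turned, and in the depot difference of the genotype effect *Scap* (0.45), *Mvk* (0.20), *Ggps1* (0.65), *Lss* (0.03), *Tm7sf2* (0.09), *Msmo1* (0.09), *Ebp* (0.46) and *Npc1* (0.03). These are fold changes on the log2 scale, and the setting itself moved the median of all genes. *Soat1* in eWAT ranged from -0.18 without replicate 3 to 0.01 without replicate 4. No other printed direction turned under the other alternatives.

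Counts of the 30 genes called moved by over 1.5 times as follows. The genotype difference in rhythm in BAT was called for 11 at an FDR of 0.05. In eWAT it was called for 1 with library size alone, 0 with separate fits, 1 with time as a factor and 7 without WT replicate 4 at ZT18. The rhythm difference between the WT depots was called for 2 with library size alone and 7 with a replicate block shared by BAT and eWAT. In eWAT 6 differed at ZT10 with library size alone, and at ZT18 3 at an FDR of 0.05 and 4 without WT replicate 4. Leaving out each replicate number gave 8 to 20 rhythms in WT BAT and 5 to 20 in WT eWAT, and differences in rhythm of 0 to 8 in BAT, 0 to 7 in eWAT and 1 to 4 between WT depots. At the single times it gave 9 to 14, 8 to 14, 9 to 14 and 13 to 19 in BAT and 3 to 10, 6 to 14, 0 to 3 and 3 to 7 in eWAT. Leaving out a replicate number also lowers the number of samples, and the cause of these changes was not tested.

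Same-numbered samples of BAT and eWAT correlated at a median r of 0.0525 (10 of 32 pairs over 0.1), and differently numbered ones at -0.0215 (5 of 96). For WT and FANKO these values were 0.0515 (6 of 32) and -0.0195 (6 of 96). The labels do not state pairing, and the main fits took all samples as independent. Whether same-numbered samples share an animal or a batch was not tested. A replicate block shared by BAT and eWAT called 23 genes for the WT depot difference in level, against 20 in the main fit. For the depot difference in the genotype effect it called 24, against 23. With a block for replicate number alone, 21 genes differed in mean level in BAT and 14 in eWAT, and the difference in rhythm was called for 7 in BAT. The fitted cosine rests on 4 times of day.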

Other observations

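The companion genes held 3 oxysterol enzymes, *Ch25h*, *Cyp27a1* and *Cyp7b1*. In FANKO BAT 3 of the 3 were higher than in WT, and in eWAT 2 of 3 were, against 33.1% and 27.6% of all genes. The WT sample of replicate 4 at ZT18 had an enzyme median of 0.11 in BAT, against 0.60 to 0.84 in the other 3 samples. Its *Nampt* level there was 1454 CPM, against 763.5 to 883.1 CPM, and its *Mylip* level was 80.1 CPM, against 31.1 to 38.3 CPM. In the same group in eWAT, *Erlin2* was 43.1 CPM in replicate 4, against 64.3 to 68.5 CPM in the other 3.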
